A study of Rattus norvegicus with 4 samples.

Results

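Mitotic cell cycle genes were examined in cultured rat granulosa cells, which surround the oocyte in the ovarian follicle and make its steroids, and in which the transcription factor Runx2 had been targeted with an siRNA. The 33 genes were named as a list of mitotic cyclins, kinases, checkpoint proteins, motors and chromosome proteins, and every probe set whose only annotated symbol was one of them was taken. This gave 45 probe sets for 30 genes, out of 31042 probe sets on the array. Array signals of Hmgb2, Nek2 and Tpx2 were not analysed here. Of the 45 probe sets, 31 had a mean signal over the 4 arrays at or above 78.6 and 14 lay below it. That limit leaves out the lowest 40% of probe sets, where this array signal is unsteady. The member probe set just above it, a second one of Top2a, had a mean of 80.6, and the one just below it, of Melk, 77.2. The brightest probe set passed it for 23 genes and did not for 7.

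Ovaries were taken at 27 days of age from immature Sprague Dawley females, 48 h after PMSG, a hormone with follicle-stimulating activity. The Runx2 siRNA and the negative control siRNA were each transfected at 20 nM, and both groups then received 10 µM forskolin, an activator of cAMP synthesis, for 48 h. Forskolin and transfection were thus common to all 4 arrays, and no comparison here bears on either. Each group held 2 arrays, titled replicate 1 and replicate 2, from cultures described as separate, and this number limits the precision of every value. Nothing in the labels ties arrays of equal number to a shared preparation. The p-values set the difference by siRNA against the spread between arrays within each group, and they rest on these 4 arrays alone.

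Entry into mitosis is driven by Cdk1 bound to cyclins A and B, and exit by the anaphase-promoting complex, which marks the cyclins for destruction once the spindle checkpoint is satisfied. Transcripts of this machinery accumulate together late in the cycle and are kept low in resting cells, through promoter elements bound by the DREAM and MuvB complexes and by NF-Y. Granulosa cells divide while follicles grow and leave the cycle as they turn into luteal cells, a step that raised cAMP promotes.

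The members share promoter letters that the choice of genes did not use. RefSeq promoters (GRCr8 build), 300 bases from 250 before to 50 after the annotated start, were at hand for 27 of the 33 members. Both strands were searched for the cell cycle homology region, CHR, as TTTGAA or TTCGAA, and for the NF-Y box, CCAAT, 2 motifs that can share 1 base, as they do in Mki67. A CHR match lay in 18 of the 27 members (66.7%), against 12.8% of 8442 promoters of genes with a tested probe set and 19.7% of all 33469 promoters in the table. CCAAT lay in 21 of 27 (77.8%), against 38.1% and 37.5%. Both lay in 16 of 27 (59.3%), against 5.34% and 7.95%. A match is a description of letters, not of a bound site.

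The stretches from 170 bases before to 30 after the start are shown for members whose array values are described below, 5′ to 3′ on the gene's own strand, with matches on either strand in capitals.
Cdc20 (chr5:137255770-137255969, minus strand): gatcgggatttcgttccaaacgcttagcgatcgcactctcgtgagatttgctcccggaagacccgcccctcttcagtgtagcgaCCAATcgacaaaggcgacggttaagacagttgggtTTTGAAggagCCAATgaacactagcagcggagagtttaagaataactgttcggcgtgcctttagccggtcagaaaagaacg
Ccnb2 (chr8:79981629-79981828, minus strand): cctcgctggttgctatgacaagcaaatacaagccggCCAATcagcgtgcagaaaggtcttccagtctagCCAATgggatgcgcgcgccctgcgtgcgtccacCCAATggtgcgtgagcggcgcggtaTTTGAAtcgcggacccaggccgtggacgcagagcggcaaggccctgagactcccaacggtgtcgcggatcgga
Kif23 (chr8:71320555-71320754, minus strand): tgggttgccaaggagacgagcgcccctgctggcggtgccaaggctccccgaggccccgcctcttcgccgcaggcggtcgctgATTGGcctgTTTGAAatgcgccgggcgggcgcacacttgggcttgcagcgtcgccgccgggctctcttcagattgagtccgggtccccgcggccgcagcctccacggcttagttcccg
Plk1 (chr1:186147488-186147687, plus strand): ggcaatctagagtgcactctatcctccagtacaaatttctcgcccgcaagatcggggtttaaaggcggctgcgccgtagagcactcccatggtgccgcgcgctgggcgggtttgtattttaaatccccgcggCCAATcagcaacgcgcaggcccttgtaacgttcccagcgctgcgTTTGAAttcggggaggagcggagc
Top2a (chr10:84473064-84473263, minus strand): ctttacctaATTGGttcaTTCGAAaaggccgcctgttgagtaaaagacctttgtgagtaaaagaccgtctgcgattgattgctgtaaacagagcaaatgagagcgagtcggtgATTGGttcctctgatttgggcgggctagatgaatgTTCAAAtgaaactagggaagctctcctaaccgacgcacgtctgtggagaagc
Cdk1 (chr20:19265123-19265322, plus strand): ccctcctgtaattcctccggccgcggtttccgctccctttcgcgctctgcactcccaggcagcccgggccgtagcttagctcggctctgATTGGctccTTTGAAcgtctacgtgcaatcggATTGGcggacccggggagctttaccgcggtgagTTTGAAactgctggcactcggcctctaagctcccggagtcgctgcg
Ccnb1 (chr2:33655196-33655395, minus strand): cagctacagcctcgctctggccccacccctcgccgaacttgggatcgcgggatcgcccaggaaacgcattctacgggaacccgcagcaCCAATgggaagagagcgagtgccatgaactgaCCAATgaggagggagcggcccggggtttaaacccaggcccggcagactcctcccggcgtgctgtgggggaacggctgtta
Smc2 (chr5:71602235-71602434, plus strand): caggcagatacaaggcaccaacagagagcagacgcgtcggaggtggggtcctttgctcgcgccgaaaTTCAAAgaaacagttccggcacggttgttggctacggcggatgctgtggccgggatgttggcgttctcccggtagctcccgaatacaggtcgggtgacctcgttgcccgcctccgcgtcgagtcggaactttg
Cdc20, Ccnb2, Kif23, Plk1, Top2a and Cdk1 carry both motifs in the stretch shown, while Ccnb1 carries CCAAT alone and Smc2 a CHR match alone, its CCAAT lying further upstream. CHR was searched only as TTTGAA or TTCGAA, so any other form would be missed.

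**Figure D1:**
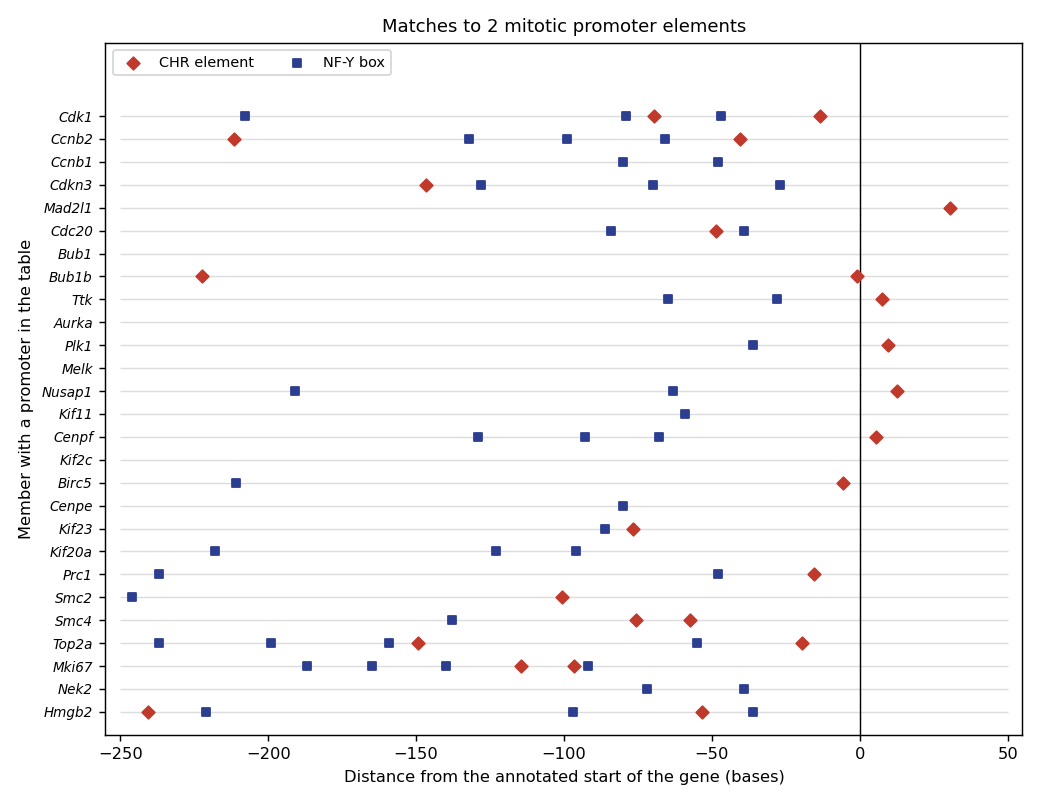
Position of each CHR match (diamonds) and NF-Y box match (squares) in the 27 members with a promoter in the table, as distance in bases from the annotated start of the gene; each line is 1 member. Of the 25 CHR matches, 18 lie from 100 bases before to 50 after the start, in 16 members. In the stretch searched around the annotated start, which was not checked, 4 members have a match to neither element.

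Mean signals over the 4 arrays ran from 26.5 to 565 across the brightest probe sets of the 30 members, with a median of 115, where the median of all 31042 probe sets was 140.4. The 23 members that passed the signal limit had a median of 135, against 473 over all tested probe sets. By the median over the 30 members the arrays stood in the order control 1 at 70.5, control 2 at 113, Runx2 siRNA 1 at 132 and Runx2 siRNA 2 at 159. The 2 control arrays lay below both Runx2 siRNA arrays in this summary, and the first control array lay furthest from the rest. Over all 31042 probe sets the medians stood in the same order, at 129, 137, 141 and 153, with smaller steps. In bulk RNA, fewer cells in division and less mitotic RNA per cell cannot be told apart.

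**Figure D2:**
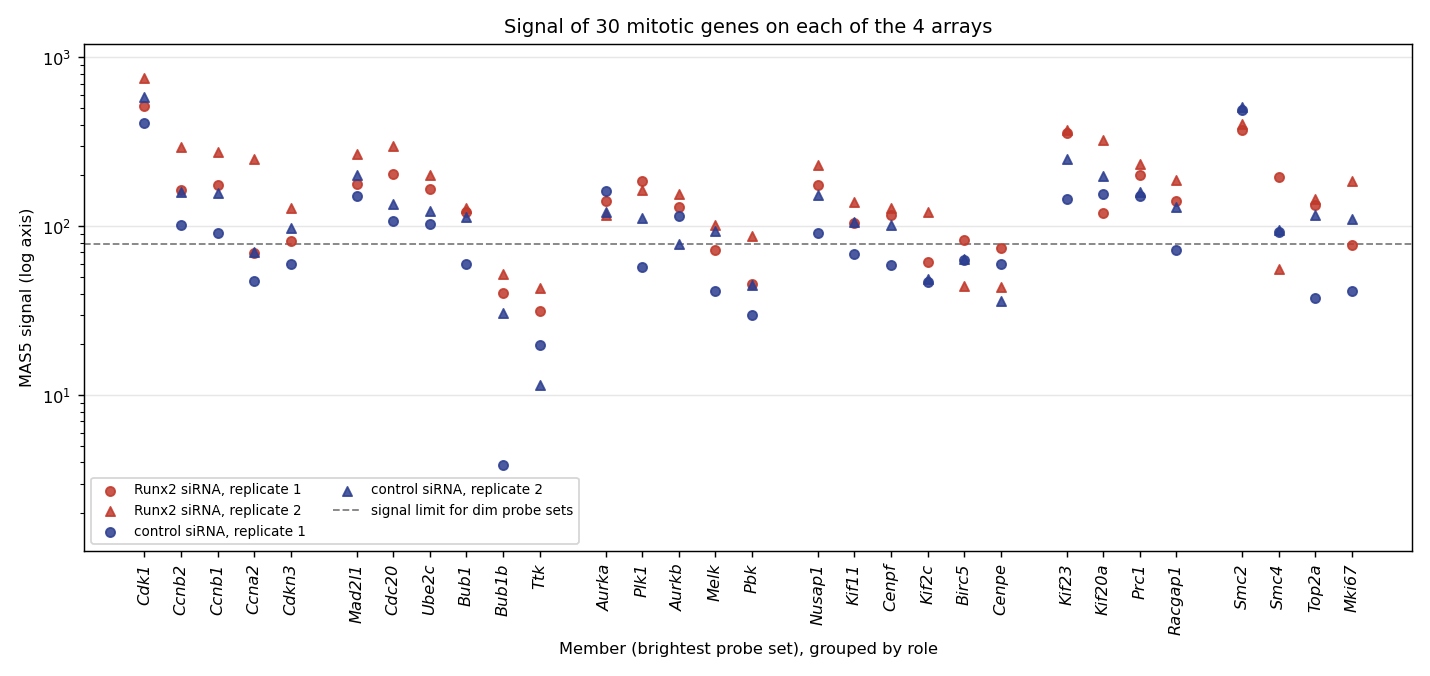
MAS5 signal (log axis) of the brightest probe set of each of the 30 members on the 4 arrays, grouped by role; red marks are Runx2 siRNA, blue marks control siRNA, circles replicate 1 and triangles replicate 2, and the dashed line is the limit of 78.6. The triangle of Runx2 siRNA replicate 2 is the highest mark for 24 of 30 members and the circle of control replicate 1 the lowest for 22. These arrays were highest and lowest for 36.9% and 32.8% of tested probe sets, and for 42.5% and 35.7% of all 31042.

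The comparison by siRNA addresses the effect of lowering forskolin-induced Runx2 expression. The level of Runx2 itself was not analysed here, so how far it was lowered is not known from these values. With Runx2 siRNA, 27 of the 30 members had a positive mean difference on the log2(signal + 16) scale, the scale of every difference here, which understates the change of dim probe sets. The median difference was 0.57 over the 30 members and 0.55 over the 23 that passed the signal limit, against 0.05 over all 18625 probe sets tested and 0.09 over the 9458 of them in the signal range of those 23. Among all probe sets tested, 58.1% had a positive difference. Without a term for replicate number, no member passed the test over all probe sets (limma, adjusted p from 0.353 to 0.899 for the 23). A fit with such a term, which changed some calls, is given in the last section. Without it, no other probe set passed either (0.00% called), although 2225 of those tested (11.9%) had an unadjusted p under 0.05 by limma. Of the 23 members, 5 did by limma, 4 of them with higher signal (6.45% of all probe sets) and 1, Smc2, with lower signal. The median moved from 0.55 to 0.23 without the first control array and to 0.87 without the second, and to 0.35 after quantile and 0.34 after cyclic loess scaling.

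The groups did not overlap for 17 of the 30 members with higher signal under Runx2 siRNA, where 28.8% of all tested probe sets stood apart in that direction. Of the 23 tested members 13 did so, and of all 31042 probe sets 31.1%. Here and below, shares of tested probe sets leave out dim ones, while the 30 members include 7 below the limit. The groups stood apart with lower signal for 1 member, against 18.5% of tested probe sets. Within the pairs of equal number the difference was positive in both pairs for 25 of 30 members, against 41.6% of tested probe sets, and negative in both for 2, Smc2 and Aurka. For the first pair the median over the 30 members was 0.56, and for the second it was 0.49.

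**Figure D3:**
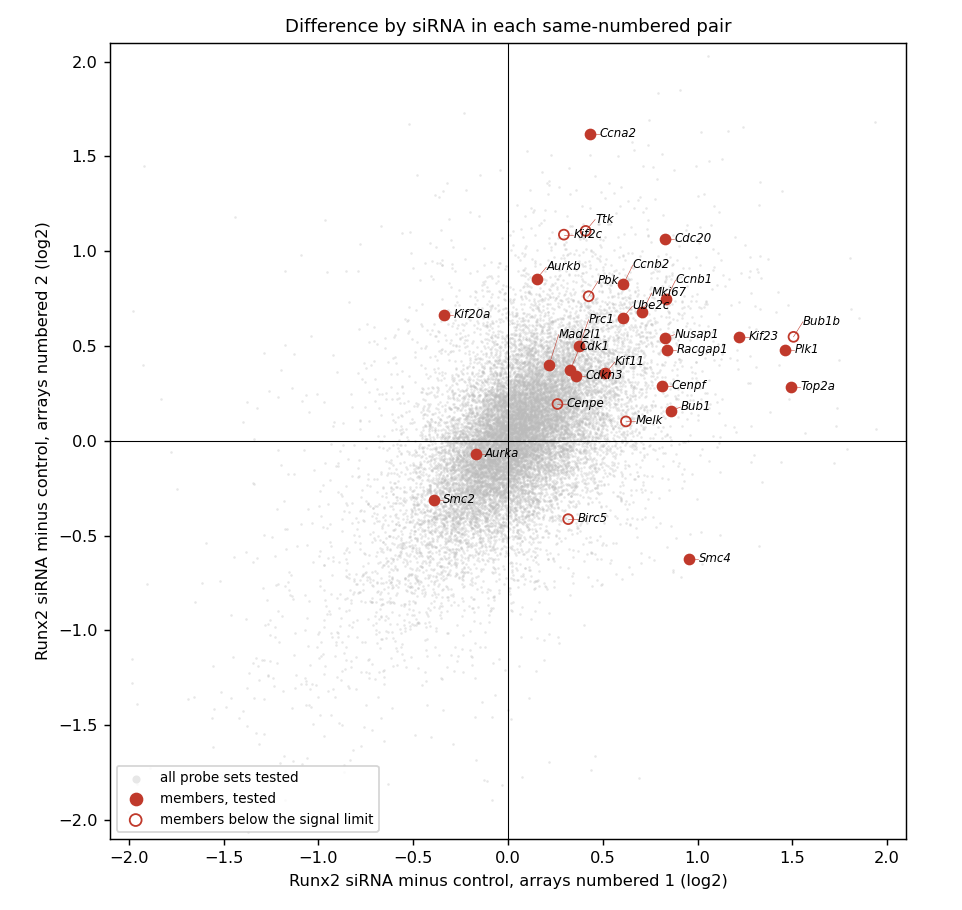
Difference by siRNA (log2) in the pair of replicate 1 arrays (horizontal) and in the pair of replicate 2 arrays (vertical); grey dots are all probe sets tested, filled circles the 23 tested members and open circles the 7 members below the signal limit, with the farthest grey dots outside the axes. Of the 30 members, 25 lie above 0 on both axes, spread from Ccna2, high in the second pair, to Plk1 and Top2a, high in the first.

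The difference by replicate number was of similar size in these genes. The arrays numbered 2 were above those numbered 1 in both siRNA groups for 23 of 30 members, against 35.2% of tested probe sets. The median difference by number was 0.34 with Runx2 siRNA and 0.47 with control siRNA over the 30 members, where the median over all tested probe sets was 0.01 in both. For 8 members both arrays numbered 2 lay above both numbered 1, against 20.1% of tested probe sets. The 4 arrays were thus ordered with Runx2 siRNA 2 highest and control 1 lowest for 21 of 30 members, an order that 21% of tested probe sets shared.

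**Figure D4:**
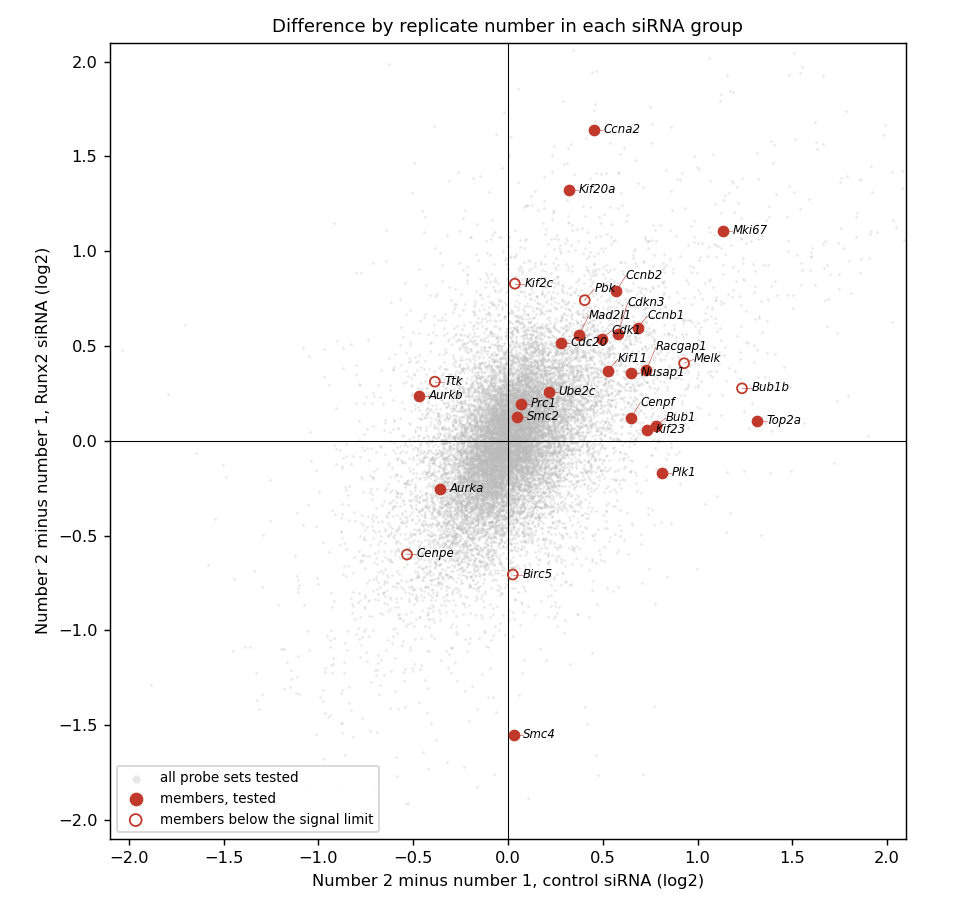
Difference of array number 2 minus number 1 (log2) in the control siRNA group (horizontal) and the Runx2 siRNA group (vertical), with marks as in the plot by siRNA. Of the 30 members, 23 lie above 0 on both axes; Top2a, Bub1b and Plk1 differ by number mainly with control siRNA, and Ccna2, Kif20a and Kif2c mainly with Runx2 siRNA.

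Members fell into different shapes under this common order. Sorting each member's 4 log2 values and taking the widest gap, a description made after the values were seen, left control array 1 alone at the bottom for 13 members, among them Top2a, Bub1, Plk1, Kif23, Cenpf and Mki67, where 10.1% of tested probe sets had that shape. Runx2 siRNA array 2 stood alone at the top for 7, namely Ccna2, Ccnb2, Cdk1, Kif20a, Kif2c, Mad2l1 and Pbk, against 16.7%. The widest gap lay between the siRNA groups, with Runx2 siRNA high, for 4 members, namely Cdc20, Ube2c, Prc1 and Ttk, against 10.1% of tested probe sets. It lay between them with control high for Smc2, against 6.23%. The other 5 had further shapes, with both arrays numbered 1 high for Aurka and Cenpe, Runx2 siRNA array 1 alone high for Smc4, Runx2 siRNA array 2 alone low for Birc5 and control array 2 alone low for Aurkb.

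Some measures of the arrays differed along with the members, and others did not. Without the second Runx2 siRNA array the median of the 23 tested members was 0.39, with 21 of them positive. On the second Runx2 siRNA array the actin 3′ to 5′ signal ratio was 1.71 against 1.42 to 1.45 on the others, while the GAPDH ratio was lowest there, at 0.949 against 0.978 to 1.03. The geometric mean signal of the spike-in transcripts was 132 and 223 with Runx2 siRNA and 102 and 119 with control siRNA, replicate 1 first. Both Runx2 siRNA arrays thus lay above both controls. The arrays stood in the same order by this measure as by the median signal of the mitotic members. How far the spike-in difference bears on the result was not tested. Granulosa markers had 12 of 13 measured members at or above the limit and a summed signal of 101656 and 107072 with Runx2 siRNA and 97455 and 86755 with control siRNA. Stromal and smooth muscle markers, all 8 above the limit, summed to 1302 and 1997 with Runx2 siRNA and 1001 and 1544 with control siRNA, replicate 1 first. Leukocyte markers, 4 of 9 above the limit, summed to 1121 and 1698 against 866 and 1439, with Ptprc, the pan-leukocyte phosphatase, at most 37.4 on any array. Of these 9 markers 5 were higher and 4 lower with Runx2 siRNA, with a median difference of 0.06. The oocyte list, 1 of 4 above the limit, summed to 577 and 840 against 394 and 585. These 3 sums were lowest on control array 1 and highest on Runx2 siRNA array 2, as most mitotic members were. Of single probe sets tested, 21.0% had that order, and a sum leans on its brightest markers. The part of these sums in the result was not tested. Endothelial markers, 1 of 5 above the limit, summed to 359 and 301 against 253 and 349, and the 2 theca markers, both below the limit, to 164 and 122 against 73.8 and 70.4. No marker was at a signal of 0 (0 in each list).

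Among the cyclins and their partners, all 5 genes were higher with Runx2 siRNA in both pairs, with a median difference of 0.72. Ccnb1, which encodes cyclin B1, the main partner of Cdk1 at mitotic entry, had signals of 176 and 275 with Runx2 siRNA and 91.8 and 157 with control siRNA, replicate 1 first as in all that follows. The groups stood apart, and each replicate 2 was above its replicate 1. The log2 difference was 0.79 ± 0.33 (SE, n = 2 arrays per group; limma adjusted p = 0.425), and 0.39 ± 0.37 for a second probe set of nearly the same brightness.

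Ccnb2, encoding cyclin B2, had 164 and 296 against 102 and 160, also without overlap but with the lower Runx2 siRNA array next to the higher control array, and a difference of 0.72 ± 0.34 (limma adjusted p = 0.457). Ccna2, encoding cyclin A2, which acts in S phase and early mitosis, had 69.5 and 251 against 47.4 and 70.8. Here a single array, Runx2 siRNA 2, was high and the groups overlapped. The difference of 1.03 ± 0.56 was the highest of the 23 tested members but had the widest SE of them, and it was 0.43 in the first pair and 1.62 in the second.

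Cdk1, the mitotic kinase itself, was the brightest member at 516 and 757 against 407 and 581. The groups overlapped, and the difference by siRNA of 0.35 ± 0.25 lay below that by number, 0.54 with Runx2 siRNA and 0.49 with control siRNA. Cdkn3, a phosphatase that acts on Cdk1, followed the same order at 81.5 and 128 against 60.02 and 97.7, a difference of 0.35 ± 0.32. Both genes thus separated the replicate numbers and not the siRNA groups. Their difference by siRNA was still alike in the pairs, at 0.33 and 0.37 for Cdk1 and 0.36 and 0.34 for Cdkn3.

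In the spindle checkpoint and the anaphase-promoting complex, all 6 members had a positive mean difference and 5 of 6 stood apart, 2 of them below the signal limit, where 28.8% of tested probe sets stood apart with higher signal. Cdc20, the activator of the complex and the checkpoint's target, had 204 and 299 with Runx2 siRNA and 108 and 135 with control siRNA. Both Runx2 siRNA arrays were well above both controls, and the difference was 0.83 in the first pair and 1.06 in the second. The fitted difference was 0.95 ± 0.25 (SE, n = 2 per group; limma adjusted p = 0.353). The other 4 Cdc20 probe sets lay between 0.13 and 0.76, 3 of them below the signal limit. The second, at 114 and 225 against 87.7 and 191, separated the numbers and not the siRNA groups, with 0.33 and 0.22 in the pairs. The result for Cdc20 therefore depends on the probe set.

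Ube2c, the ubiquitin-conjugating enzyme that works with the complex, had 166 and 202 against 104 and 123, again without overlap. Its difference was 0.63 ± 0.21 (limma adjusted p = 0.381) and was 0.61 and 0.65 in the pairs. Bub1, a checkpoint kinase at the kinetochore, had 121 and 129 against 59.5 and 114, a difference of 0.51 ± 0.31 that was 0.86 in the first pair and 0.16 in the second, with control array 1 alone low. Mad2l1, which holds Cdc20 inactive, had 178 and 269 against 151 and 200, with overlap and 0.31 ± 0.26, and its other probe sets lay at 0.08 and 0.27. Bub1b and Ttk, which encode 2 further checkpoint proteins, were below the signal limit. Bub1b had 40.4 and 52.3 against 3.84 and 30.7, and Ttk 31.7 and 43.1 against 19.9 and 11.5, while a second Ttk probe set went the other way at -0.17.

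The mitotic kinases were mixed. Plk1, which acts at centrosomes, kinetochores and the midbody, had 185 and 163 with Runx2 siRNA and 57.2 and 113 with control siRNA. Both Runx2 siRNA arrays were above both controls, and here replicate 1 was the higher of them. The difference was 0.97 ± 0.32 (SE, n = 2 per group; limma adjusted p = 0.381), 1.46 in the first pair and 0.48 in the second. Aurkb, the kinase of the chromosomal passenger complex, had 130 and 155 against 115 and 78.7, without overlap, at 0.50 ± 0.25. Aurka, which matures the spindle poles, had 142 and 116 against 162 and 122, with overlap and a difference of -0.12 ± 0.23, and was lower on both arrays numbered 2. Melk at 72.4 and 101 against 41.4 and 93.4, and Pbk at 45.7 and 87.1 against 29.9 and 44.8, both lay below the signal limit on average.

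Of the spindle and kinetochore members, 3 of 6 passed the signal limit. Nusap1, which bundles spindle microtubules, had 175 and 229 against 91.6 and 153, without overlap, at 0.68 ± 0.29 (limma adjusted p = 0.427). Its second probe set did not follow, at 138 and 156 against 139 and 138 and a difference of 0.08 ± 0.19. Cenpf, a large kinetochore protein, had 116 and 128 against 59.1 and 102, at 0.55 ± 0.29. Kif11, the motor that pushes the poles apart, had 105 and 140 against 68.6 and 106, with overlap, at 0.43 ± 0.28. A second Kif11 probe set, below the limit, lay at 0.66. Kif2c, a kinesin that takes microtubules apart, lay below the limit at 61.3 and 121 against 47.0 and 48.6, a difference of 0.69 without overlap. A second, dimmer Kif2c probe set gave 1.14, also without overlap, from 47.5 and 66.7 against 36.5 and 4.65. Birc5, survivin, another passenger protein, was at 82.5 and 44.4 against 63.1 and 64.5, and Cenpe, a kinetochore motor, at 74.4 and 43.6 against 59.4 and 36.1. Neither of these dim probe sets separated the siRNA groups.

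The genes of the spindle midzone and cytokinesis all passed the limit, and 3 of 4 stood apart with higher signal, against 28.8% of tested probe sets. Kif23, a motor of the centralspindlin complex, had 358 and 373 with Runx2 siRNA and 145 and 251 with control siRNA. The Runx2 siRNA arrays were close to each other and above both controls. The difference was 0.88 ± 0.27 (limma adjusted p = 0.367), and its second probe set gave 0.98 ± 0.24 (limma adjusted p = 0.353) from 110 and 145 against 52.7 and 59.9. Racgap1, the partner of Kif23 in that complex, had 142 and 189 against 72.5 and 131, at 0.66 ± 0.31, with a dimmer probe set at 0.86. Prc1, which crosslinks midzone microtubules, had 202 and 233 against 152 and 160, without overlap, at 0.44 ± 0.18. Kif20a, a kinesin of the midzone, had 120 and 324 against 156 and 199, a difference of 0.16 ± 0.45 with opposite signs in the pairs (-0.34 and 0.66).

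Among the chromosome proteins, Top2a, the topoisomerase that untangles sister chromatids, had 134 and 146 against 37.5 and 117, and Mki67, the proliferation antigen Ki-67, had 78.0 and 186 against 41.5 and 110. Top2a stood apart by siRNA at 0.89 ± 0.45, and its second probe set gave 0.85 ± 0.40, but the first control array alone was low. Mki67 separated the numbers, by 1.10 with Runx2 siRNA and 1.13 with control siRNA, more than the siRNA groups, at 0.69 ± 0.53. Its difference by siRNA was 0.71 in the first pair and 0.68 in the second.

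Smc2, a core subunit of condensin, was the 1 member that stood apart with lower signal, at 369 and 405 with Runx2 siRNA against 489 and 507 with control siRNA. Its difference was -0.35 ± 0.13 (limma adjusted p = 0.405), with the lowest SE of the tested members. Smc4, its partner in condensin, had 195 and 56.1 against 92.9 and 95.2 on the brighter probe set, with opposite signs in the pairs, and a second probe set at -0.06. The Smc4 value of 0.16 ± 0.52 turned to -0.075 after quantile scaling and -0.051 after cyclic loess scaling.

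Members with both promoter motifs and members without both did not part by direction. Of the 15 with both and a probe set, 13 had a positive difference, with a median of 0.68, and of the other 10 with a promoter and a probe set, 9 did, with a median of 0.40. Smc2, lower with Runx2 siRNA, has both motifs in the 300-base window, and Aurka has neither there. The window rests on the annotated start, which was not checked, so a motif near another start would be missed. Forms of CHR other than those searched would be missed too.

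Other mitotic genes, 105 named in 4 further lists, had 91 genes with a probe set and 68 past the signal limit. None of the 68 passed the test over all probe sets (limma, lowest adjusted p = 0.353). Of the 68, 53 had a positive difference and 15 a negative one, with a median of 0.16, between the 0.05 of all probe sets and the 0.55 of the members. They stood apart with higher signal in 25 cases and with lower signal in 5 of the 68, where 28.8% and 18.5% of all tested probe sets did so.

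Of 12 kinetochore genes, 11 were higher, with a median of 0.39, led by Cenpi at 0.70 ± 0.34 and by Nuf2, of the Ndc80 complex, at 0.67 ± 0.24, Spc25, of the same complex, at 0.63 ± 0.28, and Cenpn at 0.60 ± 0.25 (SE, n = 2 arrays per group). Nuf2 had 205 and 291 against 129 and 169, without overlap. Of 17 spindle and cytokinesis genes 14 were higher, with a median of 0.21, and the widest differences were those of Dlgap5 at 0.72 ± 0.40, Incenp, a passenger protein, at 0.63 ± 0.21, Ect2, a cytokinesis regulator, at 0.58 ± 0.35 and Aspm at 0.51 ± 0.26. Both lists thus leaned the same way as the members.

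Of 27 regulators of mitotic entry and exit, 23 were higher, with a median of 0.13. Ccnf, encoding cyclin F, had 231 and 198 against 83.3 and 131, without overlap, at 0.93 ± 0.26, followed by Cdca3 at 0.78 ± 0.32, Gtse1 at 0.59 ± 0.24 and Cdc25a, a phosphatase that activates cyclin-dependent kinases, at 0.48 ± 0.14. The condensin, cohesin and separation list differed in having 5 genes higher and 7 lower of 12, with a median of -0.04. Pttg1, securin, was higher at 371 and 408 against 249 and 264 (0.57 ± 0.14). The condensin subunits went both ways. Ncapd3 was higher at 0.21 ± 0.11, without overlap, where 28.8% of tested probe sets stood apart in that direction. Ncapg2 and Ncapd2 were lower, like Smc2, at -0.65 ± 0.25 and -0.35 ± 0.18, both without overlap, against 18.5% of tested probe sets.

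DNA replication genes, 28 past the limit, were higher in 23 cases and lower in 5, with a median of 0.25, and none passed the test (limma, lowest adjusted p = 0.326). Tyms, thymidylate synthase, had 288 and 328 against 158 and 202, without overlap, at 0.73 ± 0.19. Gins3, of the replicative helicase, lay at 0.83 ± 0.29 and Ccne1, encoding cyclin E1, at 0.56 ± 0.23. Cdc45, also of that helicase, had the opposite sign at 294 and 340 against 544 and 516, a difference of -0.72 ± 0.14.

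**Figure D5:**
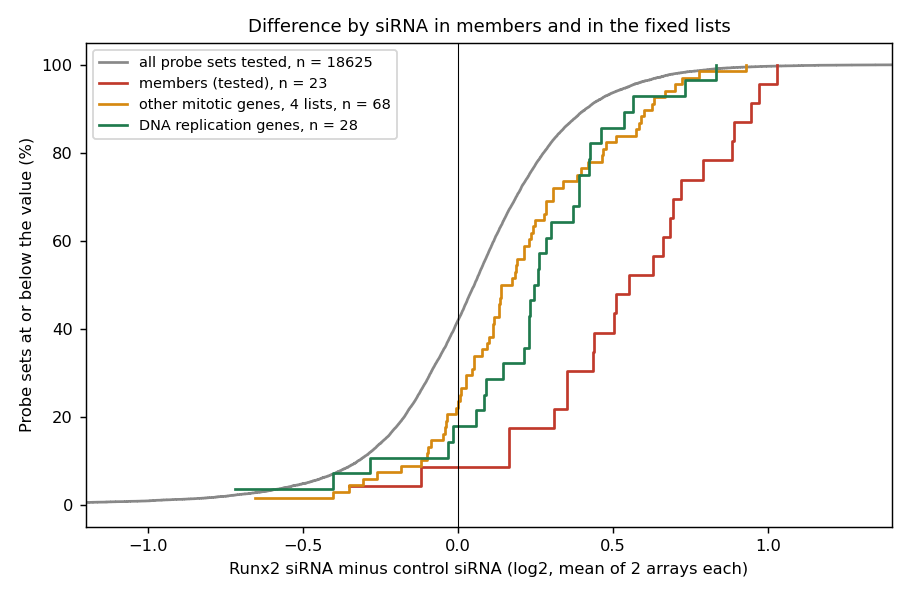
Cumulative share (%) of probe sets at or below each difference by siRNA (log2, mean of 2 Runx2 siRNA arrays minus mean of 2 control arrays), with the farthest probe sets outside the axis. The curve of the 23 tested members (median 0.55) lies to the right of those of the 28 DNA replication genes (0.25), the 68 other mitotic genes (0.16) and all 18625 probe sets tested (0.05).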

How the data were processed

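Total RNA of 4 granulosa cell cultures was labelled with biotin and hybridised to 1-colour arrays, 1 per culture. The deposited values are intensity, linear MAS5 signals; the tool name comes from the submitters' processing notes (which version is not given in the sources used here). The 2% trimmed mean was 500.1 on each array, from the values themselves, so the authors' scaling made the arrays equal in this mean, and a difference in RNA content between cultures would not show.

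Leaving out 57 array controls, 31042 probe sets remained, of which the probe table pairs 20826 with 1 symbol, 436 with several and 9780 with none. Of the probe sets with 1 symbol, 20758 matched a GRCr8 gene identifier and 68 did not, and 0 symbols changed. All 4 value columns belong to samples, and 0 others exist. Signals were analysed as log2(signal + 16). Probe sets under a mean signal of 78.6 were left out of the test, which left 18625.

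Groups and numbers came from the sample titles. Runx2 siRNA was tested against control siRNA with limma 3.58.1 under R 4.3.3 (intensity trend, two-sided), without a term for replicate number, adjusted by Benjamini-Hochberg over all tested probe sets at 0.05; the script was tested on simulated data. A gene is represented by its brightest probe set, and from each further list up to 4 genes with the widest differences are named. Members and lists were chosen with earlier results of these data known, so no list was tested. Promoters came from RefSeq. The same values were recomputed with 1 or 64 in place of 16, after quantile or cyclic loess scaling, with no filter and a filter of 60%, no trend, a replicate term, averaged probe sets and leaving out each array.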

Additional observations from a re-analysis of the deposited data

How the results depend on the processing

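Deviations of same-numbered arrays from their group means correlated at 0.548 across probe sets, but nothing in the labels ties equal numbers to 1 culture. With the replicate block, 1512 probe sets passed (610 higher, 902 lower; 8.12% of those tested), and 4 of the 23 members did, Cdc20, Kif23, Ccnb1 and Ccnb2 (adjusted p of 0.0169, 0.0269, 0.0332 and 0.0466 by limma), all higher, against 3.28% of probe sets called higher. The block changed the call of no other tested member. It leaves fewer residual degrees of freedom than the 2 of the fit without it. These calls rest on the brightest probe sets. The next brightest gave a difference of 0.27 for Cdc20 and 0.39 for Ccnb1, against 0.95 and 0.79, and 0.98 for Kif23, against 0.88. Under every other alternative 0 probe sets passed, with 871 to 3596 at an unadjusted p under 0.05. Leaving out each array in turn, the number of members with a positive difference ranged from 20 to 22 of 23, and the median from 0.23 to 0.87. Their median was 0.34 to 0.64 under the scaling, constant and filter alternatives, while that of all probe sets was 0.00 to 0.10. With the filter of 60%, 3 members were left, 2 of them positive. The count of positive members was an alternative chosen after seeing the data. Smc4 changed sign after quantile (-0.075) and cyclic loess scaling (-0.051) and ranged from -0.61 to 0.94 with arrays left out. Likewise Kif20a ranged from -0.50 to 0.82 and Aurka from -0.30 to 0.061. The cause of these reversals was not tested. By number, the medians ranged from 0.13 to 0.39 with Runx2 siRNA and from 0.38 to 0.62 with control siRNA. The 14 probe sets below the signal limit have no test, and 2 arrays per group limit all values.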
